A study of Oryctolagus cuniculus with 6 samples.

Results

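The sarcomere genes described here are the genes whose probe description on a rabbit microarray names a troponin, a myosin heavy or light chain, an actinin, titin, nebulin, a myomesin, a myozenin, a myosin binding protein or a calsequestrin. The wording matched 84 probes of 29 genes, among 23346 features on the array. Each gene was read from its brightest probe, and 26 of the 29 genes stood well clear of background on 3 or more arrays and were tested, among 20200 features tested. MYH1, MYBPC3 and Y18102 did not pass that filter. The wording also took in 4 genes of smooth muscle or nonmuscle cells: MYH11, X70964, MYL9 and ACTN1. The other 25 are forms of striated muscle, and 22 of them were tested. Entries were kept apart by name. X70964 is filed as a smooth muscle myosin heavy chain, and its probe and that of MYH11 lie within 58.0 kb on chromosome 6. Y18102 is an mRNA filed as titin. Whether the 29 entries hold the same gene more than once was not tested.

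The arrays measured RNA of new tissue in bone defects of male New Zealand White rabbits aged 4 months, 24 animals in the study. Each animal had 4 circular defects of 5 mm in the parietal bone, the 2 on the right filled with 0.2 g of HPD, human particulated dentin used as a bone graft, and the others left unfilled as controls. The 6 groups are HPD at day 3, HPD at day 5, HPD at day 7, control at day 3, control at day 5 and control at day 7, with 1 array each. HPD and control defects thus lay in the same animals, which were anaesthetised with Zoletil, and the labels do not say how many animals or defects gave the RNA of an array.

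The sarcomere is the contractile unit of skeletal and heart muscle. Thick filaments of myosin slide past thin filaments of actin, troponin on the thin filament is the calcium switch, Z-discs anchor the thin filaments and the M-band links the thick ones. Titin spans from Z-disc to M-band, nebulin runs along the thin filament, and calsequestrin holds calcium in the sarcoplasmic reticulum that surrounds the filaments. Bone has no sarcomeres of its own. In such bulk samples fewer cells of a type and less RNA per cell cannot be told apart.

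Levels are log2 fluorescence intensity minus the array's 75th percentile, and a level is comparable between arrays for 1 probe, not between probes. "Well above background" is the scanner software's mark for a spot. The arrays had 45220 spots each, and their 75th percentile lay between 328 and 459 intensity units with HPD and between 309 and 471 in controls. The share of spots well above background was 78.1% to 86.4% on the HPD arrays and 84.2% to 85.3% on the control arrays. The SD of the negative controls was 7.38 to 14.2 intensity units with HPD, against 1.59 to 9.65 in controls, and the lowest level that counted as well above background was -5.40 to -4.57 with HPD, against -5.57 to -5.34 in controls. Sarcomere genes well above background numbered 24, 23 and 22 of 29 with HPD at days 3, 5 and 7, against 24, 26 and 28 in controls, fewer with HPD at days 5 and 7. The share of all spots was also lower with HPD on those days. It was 86.4%, 81.5% and 78.1% with HPD at days 3, 5 and 7, against 84.2%, 84.4% and 85.3% in controls. The part of this difference between arrays in the results on dim genes was not tested. The day 3 arrays shared a slide and a scan, and the arrays of days 5 and 7 shared another.

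Other genes of striated muscle were read beside the members. Striated muscle genes of the thin filament and Z-disc that are not members were tested in 15 of 28 cases, genes of muscle metabolism and calcium handling in 25 of 30, and muscle regulators in 16 of 32. These totals include listed genes without a feature on the array. Only 26 of the metabolism and calcium genes and 17 of the regulators had one. With the members MYOM1 and NRAP counted in, 22 of 30 thin filament and Z-disc genes had one, and 17 were tested. The muscle creatine kinase CKM, the skeletal actin ACTA1, the Z-disc protein TCAP, the ryanodine receptor RYR1 and the myogenic factor MYOG were well above background on all 6 arrays. So were 18125 of the 23346 features on the array, so this mark alone does not show that muscle was present. The satellite cell factor PAX7, the calcium channel CACNA1S, the Z-disc protein MYPN and XIRP2 were well above background on none. Among the members, the probe read as MYH1, an adult fast heavy chain, was well above background on 1 array only, the day 7 control. RefSeq lists its accession under a locus number and not as MYH1. Another transcript on the array, MHC, which RefSeq names MYH1 and whose description the wording did not match, was well above background on all 6 arrays. Its levels were -2.20, -2.87 and -2.86 with HPD at days 3, 5 and 7, against -3.11, -2.97 and -2.74 in controls.

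Several results turn on single probes, so the probes that decide them are shown first. They are credited to the array's own sequence column, in the oryCun2 build, 5′ to 3′. The first set holds 3 neighbouring titin probes, on the minus strand of chromosome 7, the last 19 bases of the first and the first 20 of the third being shared with the middle one (in capitals).
TTN probe 1: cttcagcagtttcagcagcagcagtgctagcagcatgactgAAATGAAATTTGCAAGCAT
TTN probe 2: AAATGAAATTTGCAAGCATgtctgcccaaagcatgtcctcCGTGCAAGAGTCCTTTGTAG
TTN probe 3: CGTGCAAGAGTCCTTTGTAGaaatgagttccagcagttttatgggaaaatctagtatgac
The probes lie at chr7:118226058-118226117, chr7:118226017-118226076 and chr7:118225977-118226036. Probe 2 is the brightest of the 20 titin probes and stands for TTN below. Probe 1 was well above background on all 6 arrays and probe 3 on none, although each overlaps probe 2.

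The second set holds 3 of the 5 calsequestrin 1 probes, shifted along the same stretch of chromosome 13, minus strand, with the 56 bases common to all 5 in lower case.
CASQ1 probe 1: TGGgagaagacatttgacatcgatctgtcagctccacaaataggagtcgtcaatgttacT
CASQ1 probe 2: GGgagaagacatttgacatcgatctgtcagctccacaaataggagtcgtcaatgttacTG
CASQ1 probe 3: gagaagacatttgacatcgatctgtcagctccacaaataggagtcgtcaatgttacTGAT
CASQ1 probe 1, at chr13:32903148-32903207, is the brightest and stands for the gene. Probe 3, at chr13:32903145-32903204, was also well above background on 4 arrays, and probe 2, at chr13:32903147-32903206, on none.

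The third set holds the probes of the 2 troponin C genes, with the bases that are identical in an ungapped placement in capitals.
TNNC1: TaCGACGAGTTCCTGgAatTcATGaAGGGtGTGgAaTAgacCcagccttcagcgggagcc
TNNC2: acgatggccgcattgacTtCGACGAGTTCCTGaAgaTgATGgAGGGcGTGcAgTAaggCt
Of 43 aligned bases 30 are identical, and the longest identical run has 13 bases. The TNNC1 probe maps to chr9:19523614-19523749 on the minus strand, a stretch longer than its 60 bases, and the TNNC2 probe has no position in the file.

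HPD was compared with control over the 3 days. None of the 26 tested sarcomere genes was called at an adjusted p of 0.05 in limma's fit with day as a term, and 0% of all 20200 features were called (0 called, smallest adjusted p 0.56). At an unadjusted p under 0.05 the fit gave 1719 features, 8.51% of those tested, and 4 of the 26 sarcomere genes. TNNT2 and TTN were the 2 on the higher side, where 7.11% of features lay, and MYOM1 and CASQ1 the 2 on the lower side, where 1.4% lay. The median HPD minus control difference was 0.12 over the sarcomere genes (-0.01 with arrays scaled to their medians and -0.02 with quantile normalization) and 0.09 over all features, with 17 of 26 genes above 0 (62.7% of all features). HPD was higher on all 3 days in 5 of the 26 genes (26.4% of all features) and lower on all 3 days in 2 (11% of all features). The 3 HPD arrays lay above all 3 control arrays for TNNT2 and MYOZ3 (10.5% of all features), and below them for MYOM1 (2.15% of all features). MYOM1 passed the filter through its 3 control arrays alone, so its lower HPD values are no support for a difference.

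Of the thick filament genes, MYH3, the heavy chain of embryonic and regenerating muscle, had levels of -3.72, -1.42 and -3.99 with HPD at days 3, 5 and 7, against -4.06, -4.05 and -2.15 in controls. The HPD array was the higher by 2.63 at day 5 and the lower by 1.84 at day 7, so the high array was a different treatment on each day, and the fitted difference was 0.38 ± 0.87 (SE, adjusted p = 0.88). MYH3 was read from 1 probe, since its other probe was well above background on no array.

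MYH6, the atrial heavy chain, had levels of 0.82, 0.86 and 1.28 with HPD, against 0.56, 0.93 and 0.83 in controls. The groups overlapped, with a difference of 0.21 ± 0.16 (SE, adjusted p = 0.64). All 6 MYH6 probes were well above background on all 6 arrays. Of these, 5 were higher on average with HPD (62.7% of all features) and 4 on all 3 days (26.4% of all features). The brightest probe, whose values these are, is annotated to another transcript than the other 5. MYH13, an extraocular muscle heavy chain, had levels of -3.66, -3.78 and -3.84 with HPD, against -4.18, -3.82 and -3.68 in controls (difference 0.13 ± 0.19, SE, adjusted p = 0.79).

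The probe read as MYH1 was not tested. Its levels were -5.57, -5.85 and -6.66 with HPD, against -7.20, -6.17 and -4.09 in controls, of which only the last was well above background. The day 7 control lay at least 1.39-fold above the day 7 HPD array. The heavy chain genes MYH3, MYH1 and MYH13 lie within 299 kb on chromosome 19, at chr19:8945317-8951871, chr19:9172144-9173095 and chr19:9213025-9244408 by their probes, the cluster of skeletal heavy chains.

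MYL1, a light chain of fast muscle, had levels of -4.55, -4.68 and -5.55 with HPD, against -4.15, -5.38 and -3.34 in controls. The last HPD value and the middle control value were not well above background, and the difference was -0.64 ± 0.58 (SE, adjusted p = 0.68). The myosin binding proteins stabilise the thick filament and set its pace. MYBPC1, the slow skeletal form, had levels of -2.77, -3.20 and -2.58 with HPD, against -2.68, -3.72 and -2.32 in controls (difference 0.06 ± 0.21, SE, adjusted p = 0.92). MYBPH had levels of -3.33, -3.49 and -3.44 with HPD, against -3.16, -3.75 and -3.59 in controls, and the groups overlapped. MYBPC3, the cardiac form, was well above background on 2 arrays, both controls.

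**Figure D1:**
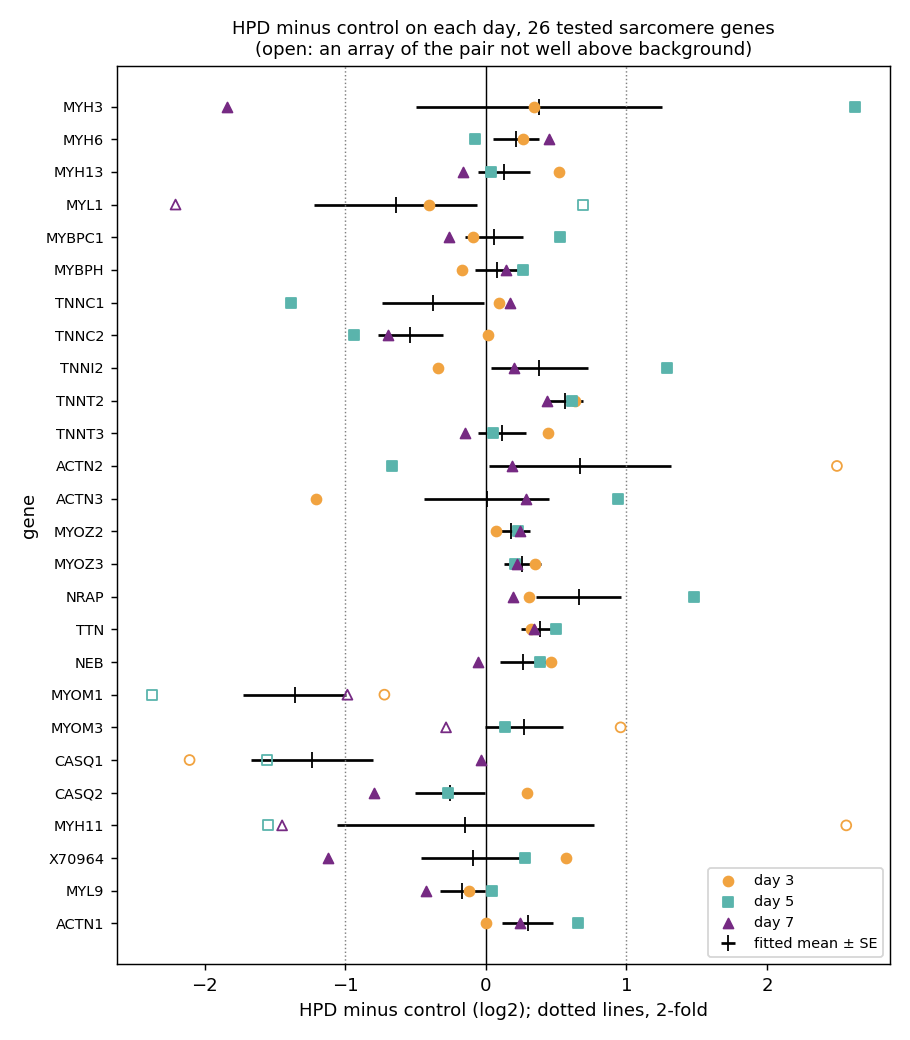
The 26 tested genes are rows, and the x axis is HPD minus control in log2. Points are days 3, 5 and 7, open where an array of the pair was not well above background, and black bars are the fitted mean ± SE over the 3 days. Most genes scatter on both sides of 0, TNNT2, MYOZ3, TTN, MYOZ2 and NRAP stay above it and MYOM1 and CASQ1 stay below it.

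Troponins are the calcium switch of the thin filament. TNNT2, the cardiac troponin T, had levels of -0.43, -0.23 and -0.37 with HPD, against -1.06, -0.84 and -0.80 in controls. The groups did not overlap, and the difference was 0.56 ± 0.13 (SE, adjusted p = 0.56), seen on 3 of 3 days. Its second probe had levels of -5.81, -3.61 and -6.38 with HPD, against -3.98, -4.69 and -5.15 in controls, and the HPD arrays of days 3 and 7 were not well above background. At day 5, with both arrays well above background, that probe was 1.08 higher with HPD. At days 3 and 7 it was well above background in the control alone. When the probes of a gene were averaged, values at background included, the TNNT2 difference was -0.05 (adjusted p = 0.96).

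TNNI2, the fast skeletal inhibitory subunit, had levels of -0.17, -0.41 and -1.39 with HPD, against 0.17, -1.69 and -1.58 in controls. It was 1.29 higher with HPD at day 5, beyond the 2-fold mark, while the difference was -0.34 at day 3 and 0.20 at day 7. TNNT3, the fast troponin T, had levels of -3.01, -3.38 and -3.26 with HPD, against -3.46, -3.43 and -3.12 in controls (difference 0.12 ± 0.17, SE, adjusted p = 0.80).

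TNNC1, the slow and cardiac calcium-binding subunit, had levels of -3.47, -2.90 and -1.58 with HPD, against -3.56, -1.51 and -1.76 in controls, with a difference of -0.37 ± 0.36 (SE, adjusted p = 0.69). TNNC2, the fast form, had levels of -3.46, -3.16 and -2.20 with HPD, against -3.48, -2.23 and -1.50 in controls, with a difference of -0.54 ± 0.23 (SE, adjusted p = 0.56). In both, the HPD array of day 5 was below the control array, by 1.39 for TNNC1 and 0.94 for TNNC2.

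At the Z-disc, ACTN2, an alpha-actinin of skeletal and cardiac muscle, had levels of -3.18, -3.61 and -3.21 with HPD, against -5.68, -2.94 and -3.39 in controls. The day 3 control was not well above background and the day 3 HPD array lay at least 5.24-fold above it, while at day 5 HPD was lower by 0.67. These are values of 1 of 3 probes. The other 2 were well above background on all 6 arrays, with day 3 differences of -0.03 and 0.66. ACTN3, the alpha-actinin of fast fibres, had levels of -0.62, 1.45 and 0.15 with HPD, against 0.59, 0.51 and -0.13 in controls, with a fitted difference of 0.00 ± 0.44 (SE, adjusted p = 0.997). At day 3 HPD was lower by 1.21, the only member beyond 2-fold on that day with both arrays well above background. The other 2 ACTN3 probes, well above background on all 6 arrays, had day 3 differences of 0.33 and 0.04, of the opposite sign.

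MYOZ2, a calsarcin of the Z-disc, had levels of -2.85, -3.02 and -2.69 with HPD, against -2.92, -3.25 and -2.94 in controls (difference 0.18 ± 0.13, SE, adjusted p = 0.62). Its 7 tested probes had average differences from -0.86 to 1.37, 5 of them above 0. The lowest includes an HPD array at background, and the highest includes the day 3 control array at background. MYOZ3 had levels of -1.003, -1.13 and -0.98 with HPD, against -1.35, -1.34 and -1.21 in controls. The groups did not overlap, by a small margin, and the difference was 0.26 ± 0.13 (SE, adjusted p = 0.56).

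NRAP, a muscle scaffold at the ends of myofibrils, had levels of -1.95, -1.10 and -1.74 with HPD, against -2.25, -2.58 and -1.94 in controls. Its difference of 1.48 at day 5 was beyond 2-fold, against 0.30 at day 3 and 0.19 at day 7.

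TTN had levels of 1.03, 0.68 and 0.87 with HPD, against 0.71, 0.18 and 0.53 in controls, all from titin probe 2 shown above. HPD was higher on 3 of 3 days but the groups overlapped, and the difference was 0.39 ± 0.13 (SE, adjusted p = 0.56). Of the 20 titin probes, 12 were well above background on no array and 8 were tested. Of the 8, 6 were higher on average with HPD (62.7% of all features) and 4 on all 3 days (26.4% of all features). Titin probe 1 had levels of -3.56, -2.63 and -1.73 with HPD, against -3.38, -2.22 and -2.32 in controls, a course unlike that of probe 2. A further titin probe, filed under the mRNA Y18102, was well above background on 1 array, the day 3 control.

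NEB had levels of -2.88, -3.17 and -3.47 with HPD, against -3.35, -3.55 and -3.42 in controls (difference 0.27 ± 0.17, SE, adjusted p = 0.59). Its 5 probes, shifted by 1 base each along chr7:90642763-90642826, were all well above background on all 6 arrays. All were higher on average with HPD, by 0.23 to 1.43 (62.7% of all features were above 0). They read nearly the same bases, so they do not count as 5 separate readings. The 2 probes that gave 0.27 and 1.43 are these, with the bases outside the 56 common to all 5 in capitals.
NEB probe 1: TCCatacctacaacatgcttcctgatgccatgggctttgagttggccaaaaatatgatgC
NEB probe 2: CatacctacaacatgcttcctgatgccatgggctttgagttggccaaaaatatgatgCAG

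MYOM1, a protein of the M-band, had levels of -5.61, -5.36 and -5.39 with HPD, against -4.89, -2.98 and -4.40 in controls. No HPD array was well above background for it and every control array was. MYOM1 thus passed the filter through the control arrays alone, and its place among the lower genes is no support for a difference. The control mean lay at least 1.85-fold above that of HPD (adjusted p = 0.56 in the fit). By day the control lay at least 1.42-fold, 3.99-fold and 1.12-fold above HPD at days 3, 5 and 7. MYOM1 was read from 1 probe, at chr9:58977950-58978009 on the plus strand, shown because it is the only evidence for the gene.
MYOM1: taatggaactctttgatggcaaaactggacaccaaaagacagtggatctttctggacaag
MYOM3, a paralogue, had levels of -4.54, -4.24 and -4.45 with HPD, against -5.50, -4.38 and -4.16 in controls. The groups overlapped, with a difference of 0.27 ± 0.28 (SE, adjusted p = 0.71).

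CASQ1, the fast-muscle calsequestrin, had levels of -5.98, -5.99 and -3.56 with HPD, against -3.87, -4.43 and -3.52 in controls. The HPD arrays of days 3 and 5 were not well above background, and the controls of these days lay at least 2.88-fold and 1.46-fold above them. The fitted difference was -1.23 ± 0.43 (SE, adjusted p = 0.56). This was the value of CASQ1 probe 1 only. Probe 3, which lies 3 bases away, had levels of -4.91, -4.55 and -4.80 with HPD, against -5.56, -5.11 and -4.96 in controls, where the day 7 HPD and day 3 control arrays were not well above background. At day 5, with both arrays well above background, probe 3 was 0.56 higher with HPD. The other 3 probes were well above background on no array. CASQ2, the cardiac form, had levels of -3.83, -4.61 and -4.42 with HPD, against -4.12, -4.34 and -3.63 in controls (difference -0.26 ± 0.25, SE, adjusted p = 0.69).

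Some members had sets of probes shifted by 1 base along the same stretch. The 4 such sets, of CASQ1, MYOZ2, NEB and TTN, have 4 or 5 probes with 56 or 57 bases in common. For NEB, whose 5 probes were well above background on all 6 arrays, the day 7 differences of HPD minus control ran from -0.22 to 2.24 and the 3-day averages from 0.23 to 1.43. In MYOZ2 the 2 tested probes of the set had averages of 0.38 and 0.44. In the CASQ1 set 2 of 5 probes and in the TTN set 1 of 5 passed the filter, and the others are drawn only to show values at background.

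**Figure D2:**
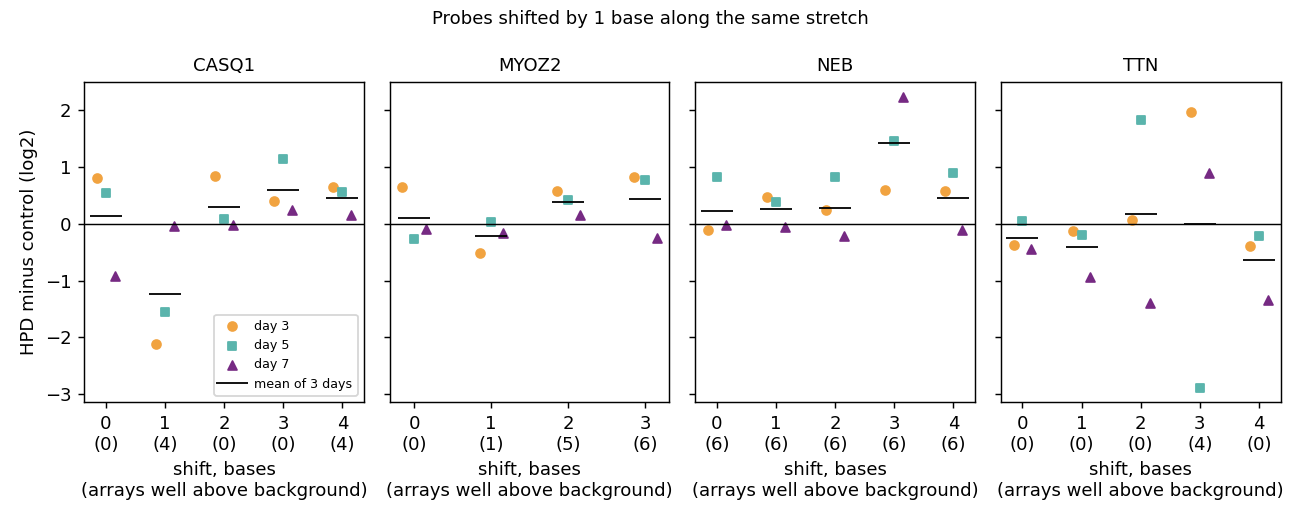
Each panel is a set of probes shifted by 1 base, with the shift on the x axis and in brackets the number of arrays on which the probe was well above background. The y axis is HPD minus control in log2 for days 3, 5 and 7, and black lines are the mean of the 3 days. The 5 NEB probes have means from 0.23 to 1.43, and CASQ1 and TTN hold mostly probes with a 0 in brackets, which show background.

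The 4 genes of smooth muscle or nonmuscle cells were read for comparison. MYL9, a light chain of smooth muscle and nonmuscle cells, had levels of 2.08, 1.99 and 2.12 with HPD, against 2.19, 1.94 and 2.55 in controls (difference -0.17 ± 0.16, SE, adjusted p = 0.69). ACTN1, the widespread alpha-actinin, had levels of 1.76, 1.73 and 1.54 with HPD, against 1.76, 1.07 and 1.30 in controls (difference 0.30 ± 0.18, SE, adjusted p = 0.59). X70964, an mRNA filed as a smooth muscle myosin heavy chain, had levels of -1.48, -2.74 and -3.88 with HPD, against -2.05, -3.02 and -2.76 in controls. MYH11, the smooth muscle heavy chain, was well above background on 3 arrays, 1 of them HPD. None of the 4 was called.

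On a single day there was no replicate and no test. Among members with both arrays well above background, 0 of 21 were at least 2-fold higher with HPD at day 3 and 1 lower (ACTN3), where 3.58% and 2.9% of all features were. At day 5, 3 of 22 were higher (MYH3, TNNI2 and NRAP) and 1 lower (TNNC1), where 4.88% and 1.68% of all features were. At day 7, 0 of 22 were higher and 2 lower (MYH3 and X70964), where 1.62% and 0.846% of all features were. The median difference over the members was 0.28, 0.22 and -0.04 at days 3, 5 and 7, against 0.14, 0.09 and 0.06 over all features. No gene was beyond 2-fold in the same direction on 2 days among those with both arrays well above background.

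Time in the defect was compared with treatment as a term. At day 7 against day 3, 0 of the 26 sarcomere genes were called, and 0.00495% of all features (1 feature). At an unadjusted p under 0.05, 2 genes were higher and 2 lower, in a comparison in which 10.7% and 10.1% of all features were. The 2 higher were TNNC2 and TNNC1. TNNC2 was 1.62 ± 0.28 higher (SE, adjusted p = 0.12) and TNNC1 was 1.84 ± 0.44 higher (SE, adjusted p = 0.15), in both treatments. In both genes the 2 day 3 arrays were the lowest of the 6. The 2 lower were TNNI2, with a difference of -1.48 ± 0.42 (SE, adjusted p = 0.18), and X70964, with -1.56 ± 0.46 (SE, adjusted p = 0.18). The day 3 arrays were the 2 highest of the 6 for both. MYH11, whose probe lies near that of X70964, had a value of the other sign, 1.34 ± 1.12 (SE, adjusted p = 0.52). Its day 3 control and day 7 HPD arrays were not well above background. The TNNC1 and TNNC2 probes share the bases shown above and the second TNNC1 probe was at background on all 6 arrays, so whether the 2 genes were read apart was not tested. Since the day 3 arrays lie on another slide, day and slide cannot be told apart here.

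**Figure D3:**
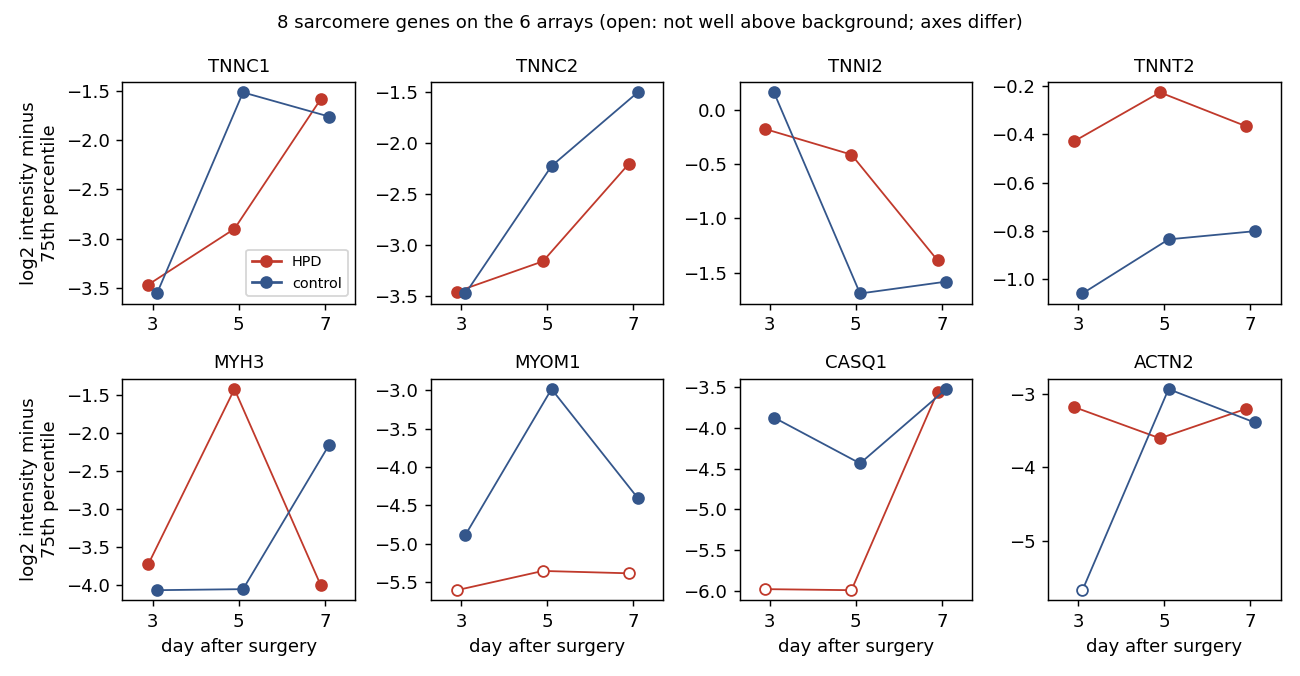
Levels of 8 sarcomere genes on the 6 arrays by day, HPD in red and control in blue, with open points not well above background. TNNC1 and TNNC2 are lowest on both day 3 arrays, at -3.56 to -3.46, TNNI2 is highest there, and the 2 lines cross for MYH3 between days 5 and 7.

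At day 5 against day 3, 0 sarcomere genes were called (0.00495% of all features). At an unadjusted p under 0.05, TNNC1 and TNNC2 were higher (6.26% of all features) and MYBPC1 and TTN lower (10.1% of all features). At day 7 against day 5, within a slide, 0 were called (0% of all features, 1629 features or 8.06% at an unadjusted p under 0.05). The median over the members was 0.16 for day 7 minus day 3, -0.11 for day 5 minus day 3 and 0.12 for day 7 minus day 5, against -0.01, -0.06 and 0.08 over all features. MYBPC1, TNNC2 and CASQ1 were the 3 genes higher at day 7 than at day 5 at an unadjusted p under 0.05, where 4.76% of features lay, and 0 were lower, where 3.31% lay. The CASQ1 value is that of probe 1, with its day 5 HPD array at background, and probe 3 had the levels given above. Values above 0 were found for 18 of 26 genes at day 7 minus day 3 (48.8% of all features), for 12 at day 5 minus day 3 (44.1%) and for 18 at day 7 minus day 5 (60.1%).

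Other genes of muscle were read beside these, from lists drawn up with earlier results of these data known. In the 3 lists of striated muscle genes 0 were called in any comparison of HPD with control or between days. At most 0.00495% of all features were called in any of them. HPD minus control was above 0 in 9 of 15 thin filament and Z-disc genes that are not members (62.7% of all features). It was above 0 in 16 of 25 metabolism and calcium genes and in 13 of 16 regulators. At an unadjusted p under 0.05, 0, 2 and 2 of them were higher with HPD (7.11% of all features) and 0 lower (1.4%). For day 7 minus day 3 at an unadjusted p under 0.05, 4 of 15 thin filament and Z-disc genes that are not members were higher and 0 lower, 5 of 25 metabolism and calcium genes were higher and 1 lower, and 2 of 16 regulators were higher and 2 lower, where 10.7% of all features were higher and 10.1% lower. ACTC1, the cardiac actin, had a day 7 minus day 3 value of 2.36 ± 0.45 (SE, adjusted p = 0.13), and TPM2, a tropomyosin, had 1.03 ± 0.17 (SE, adjusted p = 0.12). CKM had levels of -3.62, -4.38 and -1.42 with HPD, against -3.96, -3.57 and -1.96 in controls, with a day 7 minus day 3 value of 2.10 ± 0.38 (SE, adjusted p = 0.12). The day 7 arrays were the 2 highest of the 6 for CKM. Its day 7 minus day 5 value, within a slide, was 2.28 ± 0.38 (SE, adjusted p = 0.53). STAC3, a partner of the muscle calcium channel, was 1.60 ± 0.27 higher at day 7 (SE, adjusted p = 0.12). Of the regulators, FBXO32 was 1.12 ± 0.19 higher (SE, adjusted p = 0.12) and PAX3 0.97 ± 0.29 higher (SE, adjusted p = 0.19). The day 3 control array of PAX3 was not well above background. MYOG, a factor of muscle differentiation, was lower, with -1.01 ± 0.25 (SE, adjusted p = 0.16), and so was EYA1, with -0.44 ± 0.16 (SE, adjusted p = 0.24). The day 7 minus day 5 value of MYOG was -0.04 ± 0.25 (SE, adjusted p = 0.89). In every comparison with day 3, day and slide cannot be told apart.

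Of 11 tested markers of smooth muscle and myofibroblasts that are not members, 11 had day 7 minus day 5 values above 0 in the fit (60.1% of all features), with 0 called. For day 5 minus day 3, 3 of the 11 were above 0 (44.1% of all features). ACTA2, the smooth muscle actin, had levels of -1.18, 0.86 and 1.09 with HPD, against -0.03, 0.40 and 2.37 in controls, with a day 7 minus day 3 value of 2.33 ± 0.49 (SE, adjusted p = 0.14). The log2 of the summed level of the list lay between 5.12 and 5.73 with HPD, against 5.30 to 6.06 in controls. This sum adds different probes and follows mostly the brightest, CALD1, at 4.61 to 5.18 with HPD and 4.78 to 5.46 in controls. The part of these markers in the values of the sarcomere genes was not tested. HRC, a calcium-binding protein of the sarcoplasmic reticulum, was the gene of the calcium handling list with the largest HPD minus control difference, 1.28 ± 0.32 (SE, adjusted p = 0.56).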

How the data were processed

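Levels came from 6 single-colour Agilent rabbit arrays. Per the file headers, the deposited intensities were made with Agilent Feature Extraction 10.5.1.1, whose processed signal is background-subtracted intensity. The software put a substitute value in its place on 4.59% to 8.80% of non-control spots per array, the most on the HPD array of day 7. Probe flags came from the same files, and positions are those of the oryCun2 array design. Each array's log2 processed signal was computed from the deposited intensities minus its 75th percentile over non-control probes, and spots of a probe were averaged. Features marked as outliers were left out. limma 3.58.1 (R 4.3.3) fitted day and treatment over all 6 arrays, with 2 residual degrees of freedom, and Benjamini-Hochberg adjustment ran over all 20200 features. Per-day differences had no test, and 2-fold was the limit. The number of arrays limits the precision, and nothing says that arrays came from separate animals, so p-values cover only the spread among these 6 arrays, which may be technical. The fit was also run on simulated data with 200 features changed. The simulation held no difference between days, unlike these data, so no conclusion is drawn from it. Symbols came from the probe descriptions and a RefSeq table, and named 24069 of 43603 probes. The members and lists were chosen with earlier results of these data known. Every member is accounted for. Of the other lists only some genes are named, and these are not always the ones with the largest differences. Promoter motifs were not analysed here. Control and HPD defects share animals, so day served as the block.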

Additional observations from a re-analysis of the deposited data

Results flagged for a closer look

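MYH3 was singled out because HPD and control differed in opposite directions, each by more than 2-fold and with both arrays well above background. HPD minus control was 2.63 at day 5 and -1.84 at day 7 on the log2 scale. Each value rests on 1 array per treatment and on 1 probe, and the difference between the days was not tested. No group holds enough arrays for an outlier test.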

How the results depend on the processing

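In the comparison of HPD with control, no feature and no sarcomere gene was called under any of the settings tried, and the members' median ran from -0.02 to 0.26. Without the replicate block of day the median was again 0.12 with 0 called and a smallest adjusted p of 0.87, and leaving out a day gave medians between 0.04 and 0.26. Of 254 single-gene HPD values under other settings, 33 changed sign, and 10 of 26 genes kept 1 sign throughout. Counts of features between days depended on the setting. For day 7 minus day 3 they were 1033 with normexp background correction, 0 with quantile normalization, 0 with no filter on dim probes, 5 with features well above background on all 6 arrays and 381 with day alone, and between 0 and 240 with an array left out, the highest without the HPD array of day 3. For day 5 minus day 3 they were 299 with normexp, 0 with quantile normalization, 0 with no filter, 17 with day alone, and between 0 and 129 with an array left out, again the highest without the HPD array of day 3. For day 7 minus day 5 they were 2 with normexp and 3 with day alone. With normexp 2 sarcomere genes were called higher at day 7 than at day 3, TNNC1 (1.09, adjusted p = 0.049) and TNNC2 (1.02, adjusted p = 0.034), and between 0 and 1 with an array left out, MYH11 without the HPD array of day 3 (3.38, adjusted p = 0.030), where the 1 day 3 array left was not well above background, so that the size is not measured. The members' median for day 5 minus day 3 was 0.24 with normexp, -0.00038 with quantile normalization, -0.015 with arrays scaled to their medians, -0.056 with no filter, -0.17 with all 6 arrays well above background, -0.053 with probes averaged, 0.03 with striated muscle forms alone, -0.012 with every probe by itself (chosen after seeing the data), and -0.20 to 0.00092 with an array left out. For day 7 minus day 5 it was -0.086 to 0.32 with an array left out, the lowest without the control array of day 7. The HPD minus control median was 0.057 with quantile normalization and 0.11 with arrays scaled to their medians at day 3, and -0.11 with normexp at day 5. With normexp 1 gene was at least 2-fold apart at day 5 and 0 at day 7. The cause of these shifts was not tested. Signal over background limits MYH1, Y18102, MYBPC3, MYOM1, MYH11, MYL1, MYOM3 and CASQ1, each well above background on 4 arrays or fewer.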

Other observations

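Other muscle myosin genes have descriptions that the wording did not match, and they were chosen after their values were seen. MYH7, the slow and cardiac heavy chain, had levels of -2.12, -1.10 and -1.57 with HPD at days 3, 5 and 7, against -1.76, -1.80 and -1.50 in controls (difference 0.09 ± 0.25, SE, adjusted p = 0.90). MYL2, a regulatory light chain of slow and cardiac muscle, had levels of -4.56, -4.69 and -4.01 with HPD, against -5.11, -4.74 and -4.04 in controls. Its day 7 minus day 3 value was 0.80 ± 0.21 (SE, adjusted p = 0.16). MYL3, a light chain of the same muscles, had levels of -3.83, -4.22 and -3.17 with HPD, against -3.78, -3.70 and -3.15 in controls, and a day 7 minus day 3 value of 0.64 ± 0.21 (SE, adjusted p = 0.20). MHC, which RefSeq names MYH1 and whose levels are given above, had a difference of 0.29 ± 0.25 (SE, adjusted p = 0.66) and a day 7 minus day 3 value of -0.14 ± 0.30 (SE, adjusted p = 0.81). None of the 4 was called.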
